A study of Mus musculus with 6 samples.

Results

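Genes of the oligodendrocyte lineage were examined in the hypothalamus of mice with a deletion of *Slug* (*Snai2*) aimed at cells that express the long leptin receptor, LepRb. The list holds 33 genes taken by symbol, and 31 of them were measured in their own row of the deposited array table, of 21507 genes in all. It has 11 genes of oligodendrocyte precursors and of their specification, from *Pdgfra* to *C1ql1*, and 20 measured genes of myelinating cells, from *Mbp* onward. *Trf* was found only in a row shared with another gene. No row carried the symbol *Enpp2*, which was therefore not analysed here. RNA of 6 male mouse samples was hybridised to Affymetrix whole-transcript GeneChips, 3 arrays for each group. The controls carried floxed *Slug* on both alleles (Slugfl/fl) without *Cre*. The other group carried the same floxed alleles with *Cre* on both *LepR* alleles (Slugfl/fl;LepRCre/Cre, called *Slug* ΔLepRb here). All mice were labeled as 8 weeks old, while the study's methods give another age, and were fed chow. The labels describe the driver as CreERT2 where the methods describe a *Cre* knockin at *LepRb*. *Cre* is expressed wherever LepRb is, in the brain and outside it, and the arrays read the whole hypothalamus. The labels do not say how many mice gave the RNA of an array, so every p-value measures the spread between these arrays. In such bulk tissue, fewer cells of a type and less RNA per cell cannot be told apart.

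Oligodendrocytes wrap axons in myelin, a stack of lipid-rich membrane that speeds conduction. They arise from precursor cells that carry the PDGF receptor α and the NG2 proteoglycan, go on dividing in the adult brain, and pass through a premyelinating stage marked by the receptor GPR17. Transcription factors of the OLIG, SOX, and NKX families set the lineage, and MYRF then switches on the genes of myelin proteins and lipids. Myelination in the adult hypothalamus includes the tracts that cross it, and precursor cells of the median eminence have been linked to the leptin response of nearby neurons.

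The targeted gene went against the labels. *Snai2* had log2 values of 3.79, 4.23, and 4.23 in the 3 fl/fl-labeled arrays and of 10.36, 9.68, and 10.49 in the 3 ΔLepRb-labeled ones, and where its probes lie relative to the deleted part was not analysed here. *Lepr*, the gene that carries *Cre*, was at 4.04, 3.72, and 3.96 against 4.55, 4.16, and 4.42, without overlap. It was higher by 0.47 on the log2 scale (SE 0.13, adjusted p = 0.74, limma), past the study's threshold in all 14 alternative settings. Directions below are therefore those of the labels, with the arrays called fl/fl-labeled and ΔLepRb-labeled. Array medians lay between 4.04 and 4.07 on the log2 scale, and correlations between arrays lay between 0.991 and 0.993. Hypothalamic markers such as *Pmch* (mean log2 value 9.49 in the fl/fl-labeled arrays), *Avp* (9.62), and *Oxt* (8.12) were bright. Of 21 measured hypothalamic markers, 4 lay under 4.18, the median of all genes, on either side (*Pomc*, *Crh*, *Nr5a1*, and *Six3*). The means of all 7 measured pituitary markers lay under that median on either side (*Prl* reached 5.16 in ΔLepRb-labeled array 1). Of 10 measured genes of thalamus, cortex, and striatum, 5 did, while *Rgs9* had a mean of 7.11 in the fl/fl-labeled arrays. No gene list had a member listed at 0.

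Slug represses genes through E2 boxes, read as CACCTG or CAGGTG, so the promoter windows of the members were searched for these letters on both strands. RefSeq promoter windows (GRCm38.p6, 250 bases before to 50 after a gene's start) were matched by symbol for 22 of the 33 listed genes. An E2 box was found for 8 of the 22 genes (36.4%), against 22.6% of 27025 genes with a window, and in 26.7% of the members' 30 windows against 20.2% of all 32851 windows. Stretches of 30 bases from 4 genes are shown. *Nkx6-2*, a precursor-list gene, and *Ugt8a*, a lipid gene, had an unadjusted limma p under 0.05 on the arrays. Both were lower in the ΔLepRb-labeled arrays (log2 fold changes of -0.33 and -0.31). *Cnp* and *Mag* are classical myelin genes without such a p. The stretches are written 5′ to 3′ on the strand of the gene, with the E2 box in capitals.
Nkx6-2, chr7:139582950-139582979, minus strand: cagtcccggaggCACCTGcctcgctaatgg
Ugt8a, chr3:125938854-125938883, minus strand: agactttgatggCAGGTGcagcctcgcagc
Cnp, chr11:100574803-100574832, plus strand: gcattgagagtcCAGGTGtgcttttacttt
Mag, chr7:30914357-30914386, minus strand: gcaggctgtgaaCACCTGggcacacagtga
The other members with the letters were *Bmp4*, *Neu4*, *Cldn14*, and *Gjb1*. Members whose windows held none included *Cspg4*, *Ermn*, *Pdgfra*, and *Olig2*. No window was matched for *Gpr17* or *Olig1*. A match describes the letters in the window only, and no binding was measured here.

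Of the 31 measured genes, 1 precursor gene was higher in the ΔLepRb-labeled arrays by the study's threshold, and none was lower. The threshold takes an unadjusted p under 0.05 with a log2 fold change above 0.32 or a level more than 25% lower. Over all 21507 genes, 2.01% passed it, 1.44% upward and 0.577% downward. Without the limit on size, 3 members were higher and 3 were lower at an unadjusted limma p under 0.05, where 2.93% and 2.92% of all genes were (5.85% in either direction). The higher ones were *Cspg4*, *Gpr17*, and *Olig1*, all precursor genes, and the lower ones were the precursor-list gene *Nkx6-2* and the myelinating genes *Ermn* and *Ugt8a*. After Benjamini-Hochberg adjustment over all 21507 genes, none of the members passed 0.05 in limma, where 3 genes (0.0139%) did. None passed with the methods' test, where no gene of the 21507 did.

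*Cspg4*, which encodes the NG2 proteoglycan on the surface of precursor cells and lies on chromosome 9, was the member past the threshold. Its log2 values were 4.76, 4.47, and 4.66 in the fl/fl-labeled arrays and 5.20, 5.10, and 5.04 in the ΔLepRb-labeled ones. Every array of the second group lay above every array of the first. The means were 4.63 ± 0.15 and 5.11 ± 0.08 (SD, n = 3 each), or 1.40-fold apart. On the log2 scale this came to 0.48 (SE 0.11, 95% confidence interval 0.24 to 0.72). It had an adjusted p of 0.55 in limma, and a two-sided exact permutation test gave p = 0.10, the smallest that 3 arrays against 3 allow. *Cspg4* passed the study's threshold in all 14 alternative settings, with log2 fold changes from 0.40 without fl/fl-labeled array 2 to 0.55 without array 1 of that group. Pericytes also express *Cspg4*. None of 20 measured endothelial and mural genes passed the threshold or an unadjusted p of 0.05, and the list summed to 1224 to 1298 on the linear scale on the fl/fl-labeled side and 1297 to 1397 on the other. Among the mural genes the log2 fold change was 0.03 for *Pdgfrb*, -0.14 for *Rgs5*, -0.03 for *Kcnj8*, 0.09 for *Abcc9*, 0.16 for *Vtn*, -0.14 for *Notch3*, -0.31 for *Acta2*, 0.05 for *Myh11*, and 0.10 for *Tagln*, and the groups lay apart for *Vtn* and *Acta2*. Their part in the *Cspg4* value was not tested.

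*Pdgfra*, the receptor for the PDGF that drives division of precursor cells, had log2 values of 6.76, 6.69, and 6.74 in the fl/fl-labeled arrays and of 6.86, 6.92, and 6.95 in the others. The groups did not overlap, and the means lay 0.18 apart on the log2 scale (SE 0.09, 95% confidence interval -0.02 to 0.39, adjusted p = 0.84, limma). Its unadjusted p was 0.071 in limma, 0.0060 in the methods' test, and 0.040 with an intensity trend and a robust prior, and at 1.14-fold it lay under the size limit in each.

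*Gpr17*, a receptor of premyelinating cells that restrains their maturation, was at 5.52, 5.39, and 5.25 against 5.76, 5.79, and 5.55. The groups did not overlap. The log2 difference of 0.31 (SE 0.11, adjusted p = 0.84, limma), or 1.24-fold, was just short of the size limit. Its unadjusted p was under 0.05 in 11 of 14 alternative settings, and it went past the limit without fl/fl-labeled array 1 (0.38) or ΔLepRb-labeled array 3 (0.39).

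*Olig1* and *Olig2* encode related transcription factors of the lineage and are neighbors on chromosome 16, with no protein-coding gene between them in RefSeq. *Olig1* had log2 values of 6.77, 6.60, and 6.82 in the fl/fl-labeled arrays and of 6.97, 6.92, and 6.99 in the others, without overlap, and a log2 fold change of 0.23 (SE 0.10), with an unadjusted p under 0.05 in 8 of 14 alternative settings. *Olig2* had 6.96, 6.83, and 6.79 against 6.62, 6.77, and 6.88, with overlap, and a log2 fold change of -0.11 (SE 0.11). The adjusted p was 0.84 for *Olig1* and 0.92 for *Olig2* in limma, and the difference between the neighbors was not tested.

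*Nkx6-2*, a homeobox gene of the lineage that is also active in mature oligodendrocytes, ran the other way. Its log2 values were 5.32, 5.19, and 5.41 in the fl/fl-labeled arrays and 4.93, 4.82, and 5.20 in the others. The ΔLepRb-labeled array 3 lay within the range of the first group. The log2 difference was -0.33 (SE 0.12, 95% confidence interval -0.60 to -0.05, adjusted p = 0.84, limma), or 20.2% lower. Without that array it was -0.44 and past the threshold, and without array 2 of the same group it was -0.24. Its unadjusted p was under 0.05 in 9 of 14 alternative settings.

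The remaining precursor-list genes differed by less than the spread between arrays could resolve. *Sox10*, the SOX factor that marks the whole lineage, was at 5.02, 4.52, and 5.22 against 4.71, 4.88, and 5.17, with a log2 fold change of 0.00 (95% confidence interval -0.41 to 0.41). This was the widest interval of the members, and fl/fl-labeled array 2 was the lowest of the 6. *C1ql1*, which encodes a secreted C1q-like protein, differed by 0.16 (0.03 without ΔLepRb-labeled array 2), *Neu4*, a sialidase, by 0.07, *Bmp4*, a growth factor of newly committed precursors, by -0.02, and *Vcan*, the matrix proteoglycan versican, by -0.04 on the log2 scale, and the groups overlapped in each.

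**Figure D1:**
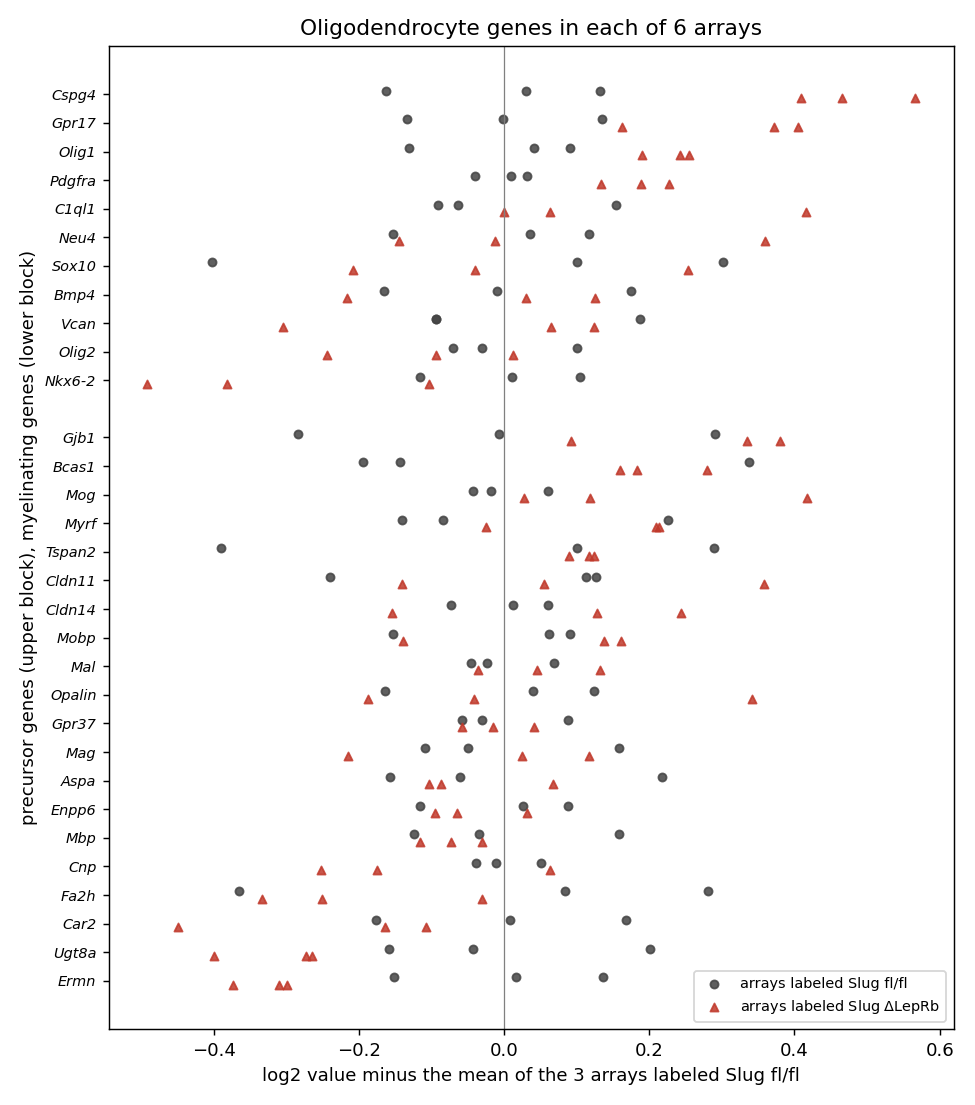
The log2 value of each gene in each array is plotted on the horizontal axis as its difference from the mean of the 3 fl/fl-labeled arrays, with 1 gene per line, precursor genes above and myelinating genes below. Triangles (*Slug* ΔLepRb) lie right of all circles (*Slug* fl/fl) for *Cspg4*, *Gpr17*, *Olig1*, and *Pdgfra* and left of all circles for *Ugt8a* and *Ermn*.

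Among the 11 precursor genes, 4 had groups that did not overlap, all with the higher values in the ΔLepRb-labeled arrays (5.91% of all genes), and none lay apart in the other direction. Among the 20 myelinating genes, none lay apart upward and 2 did downward (5.56% of all genes).

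The major myelin protein genes showed small differences. *Mbp*, which encodes myelin basic protein and compacts the membrane, was at 7.92, 7.63, and 7.72 in the fl/fl-labeled arrays and at 7.64, 7.69, and 7.73 in the others. The groups overlapped, with a log2 fold change of -0.07 (SE 0.10, 95% confidence interval -0.31 to 0.16). *Mag*, an adhesion protein facing the axon, was at 7.07, 6.80, and 6.86 against 6.70, 6.94, and 7.03, a log2 fold change of -0.02 (95% confidence interval -0.29 to 0.24).
*Mog*, a protein of the outer myelin surface, was at 6.41, 6.52, and 6.44 against 6.49, 6.88, and 6.58, and ΔLepRb-labeled array 2 set much of its log2 fold change of 0.19 (0.07 without that array). *Cnp*, an enzyme that keeps cytoplasm in the myelin layers, was at 6.04, 6.01, and 6.10 against 5.80, 6.11, and 5.88, a log2 fold change of -0.12 (95% confidence interval -0.36 to 0.12). The last genes of this kind overlapped between groups as well, with log2 fold changes of 0.05 for *Mobp*, 0.05 for *Mal*, 0.09 for *Cldn11*, the claudin of myelin tight junctions, 0.04 for *Opalin*, and 0.11 for *Tspan2*.

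*Ermn* and *Ugt8a* had the largest negative values of the myelinating genes. *Ermn*, on chromosome 2, encodes ermin, a cytoskeletal protein of late myelinating oligodendrocytes. Its log2 values were 8.12, 8.00, and 7.83 in the fl/fl-labeled arrays and 7.68, 7.61, and 7.67 in the others. The means were 7.98 ± 0.15 and 7.65 ± 0.04 (SD, n = 3 each), without overlap. The log2 difference was -0.33 (SE 0.10, 95% confidence interval -0.56 to -0.10, adjusted p = 0.81, limma). At 20.3% lower *Ermn* did not reach the 25% limit, and its unadjusted p stayed under 0.05 in all 14 alternative settings, with the value nearest 0 (-0.26) without fl/fl-labeled array 1.

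*Ugt8a* encodes the enzyme that makes galactosylceramide, the most characteristic lipid of myelin. It was at 8.28, 8.03, and 7.91 in the fl/fl-labeled arrays and at 7.80, 7.81, and 7.68 in the others, without overlap. The log2 difference was -0.31 (SE 0.11, 95% confidence interval -0.57 to -0.06, adjusted p = 0.84, limma). Without fl/fl-labeled array 1 it was -0.21 with an unadjusted p of 0.096 in limma, and with the methods' test the unadjusted p was 0.053. *Fa2h*, which hydroxylates the fatty acids of the same lipids, differed by -0.20 with overlapping groups (95% confidence interval -0.57 to 0.16), by -0.06 without fl/fl-labeled array 1, and by -0.39 (unadjusted p = 0.017, limma) without fl/fl-labeled array 2. *Aspa*, which frees acetate from N-acetylaspartate in oligodendrocytes, differed by -0.04.

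*Car2*, the carbonic anhydrase of oligodendrocytes, was at 8.99, 8.64, and 8.83 against 8.37, 8.71, and 8.66, with a log2 fold change of -0.24 (95% confidence interval -0.53 to 0.05) and overlapping groups. It was -0.14 without ΔLepRb-labeled array 1. *Gjb1*, which encodes the gap junction protein connexin 32, was at 3.68, 3.41, and 3.98 against 3.78, 4.07, and 4.02, with a log2 fold change of 0.27 (95% confidence interval -0.07 to 0.60). It passed the threshold (0.41) without fl/fl-labeled array 3. *Gjb1*, *Cldn14*, a claudin (0.07), and *Neu4* were dimmer than the median gene on either side and dropped out when dim genes were left out.

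*Myrf*, the transcription factor that turns on myelin genes, was at 6.34, 6.40, and 6.71 against 6.46, 6.70, and 6.69, a log2 fold change of 0.13 (95% confidence interval -0.15 to 0.41). *Enpp6*, a choline phosphodiesterase that marks newly forming oligodendrocytes, was at 4.31, 4.11, and 4.25 against 4.13, 4.16, and 4.25, a log2 fold change of -0.04 (95% confidence interval -0.26 to 0.18). *Bcas1*, another gene of early myelinating cells, differed by 0.21 with overlapping groups, and passed the threshold (0.38) without fl/fl-labeled array 2. *Gpr37*, a receptor of maturing oligodendrocytes, differed by -0.01. Genes of the step from precursor to myelinating cell thus had values of both signs.

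**Figure D2:**
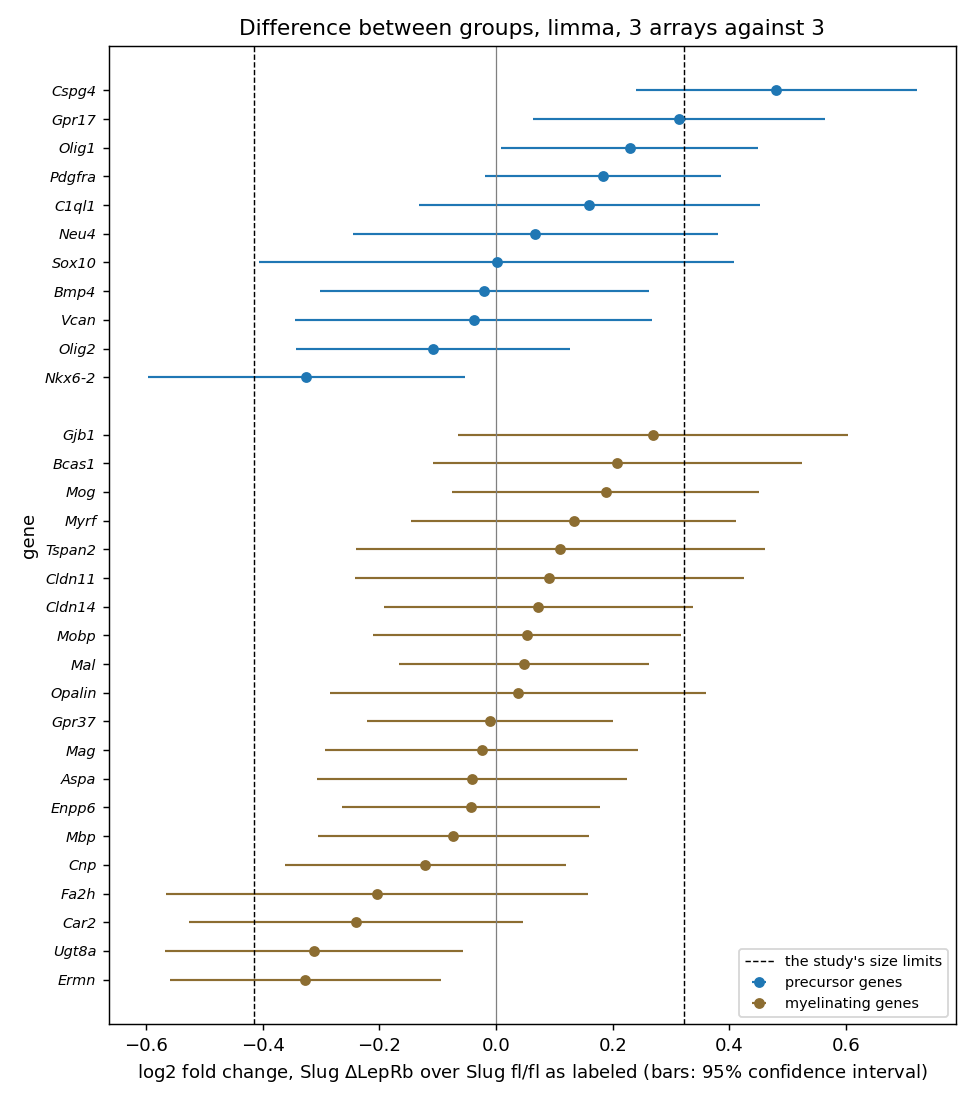
Points give the log2 fold change of each gene, *Slug* ΔLepRb over *Slug* fl/fl as labeled, and bars its 95% confidence interval in limma (3 arrays against 3), with dashed lines at the study's size limits, a log2 fold change of 0.32 and a level 25% lower. *Cspg4* (0.48) is the only member beyond a dashed line, and the intervals of *Cspg4*, *Gpr17*, *Olig1*, *Nkx6-2*, *Ugt8a*, and *Ermn* leave out 0.

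The precursor genes had a median log2 fold change of 0.07 (mean 0.09), with 7 above 0 and 4 below. The myelinating genes had a median of 0.01 (mean -0.01, the opposite sign), with 10 above 0 and 10 below. The median over all genes was 0.00. The myelinating median minus the precursor median was -0.05. It lay between -0.19 without fl/fl-labeled array 3 and -0.03 as each array was left out, so its size depended on single arrays. The sign of the comparison depended on how the medians were taken. The myelinating minus the precursor median level was 1.45, 1.52, and 1.56 in the fl/fl-labeled arrays. It was 1.66, 1.81, and 1.66 in the ΔLepRb-labeled ones, higher and without overlap. The precursor median level is the value of the middle gene, which differed between arrays. That gene was *Nkx6-2*, *Vcan*, and *Sox10* in the fl/fl-labeled arrays and *Vcan*, *C1ql1*, and *Nkx6-2* in the others. No test was made of a score over the members.

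The arrays were compared by the median deviation of the precursor genes and of the myelinating genes from their 6-array means. For the precursor genes it was 0.00, -0.14, and -0.02 in the fl/fl-labeled arrays and 0.04, 0.07, and 0.07 in the ΔLepRb-labeled ones. For the myelinating genes it was 0.08, -0.05, and 0.01 against -0.09, 0.03, and 0.06. The precursor median deviations of the groups did not overlap, with the lowest value in fl/fl-labeled array 2, while the myelinating ones did. The median levels of the precursor genes did overlap, at 5.32, 5.14, and 5.22 in the fl/fl-labeled arrays against 4.93, 5.10, and 5.20. So did their summed linear levels, at 535 to 592 against 587 to 621. Over all genes the deviation lay within 0.003 of 0 in each array.

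**Figure D3:**
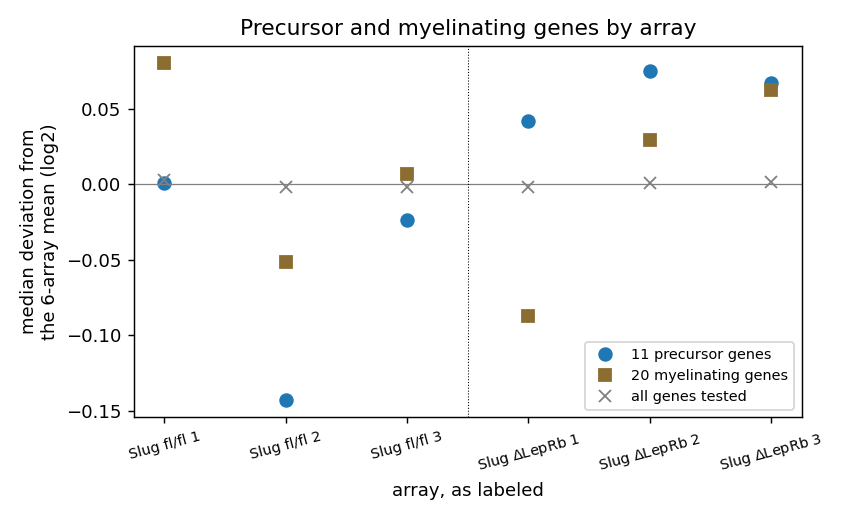
Each point is the median, over the genes of a set, of the log2 value minus that gene's mean over the 6 arrays, for the precursor genes (circles), the myelinating genes (squares), and all genes (crosses). Precursor points lie between -0.14 and 0.00 in the fl/fl-labeled arrays and between 0.04 and 0.07 in the others, whereas the myelinating points of the groups overlap.

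Within each group, the arrays did not share the highest and lowest values of the myelinating genes evenly. The fl/fl-labeled array 1 was the highest of its group for 11 of 20 myelinating genes, where it was the highest for 33.7% of all genes. Array 2 of that group was the lowest for 10 of 20, where it was the lowest for 33.6% of all genes. The ΔLepRb-labeled array 1 was the lowest of its group for 15 of 20, where it was the lowest for 33.2% of all genes. The precursor genes were shared unevenly in part. Of these 11 genes, fl/fl-labeled array 1 was the highest of its group for 6 and array 2 the lowest for 7. The ΔLepRb-labeled array 3 was the highest of its group for 6, where it was the highest for 33.7% of all genes. The lowest values of that group were split evenly, at 4, 3, and 4 for its arrays 1, 2, and 3. The summed linear level of the myelinating genes ranged from 3676 to 4227 in the fl/fl-labeled arrays and from 3527 to 4006 in the others. Groups thus overlapped in the sum. The within-group SD of a member had a median of 0.15, against 0.14 over all genes.

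Other genes of the lineage were read from longer lists. Of 19 other precursor genes, none passed the threshold in either direction. *Sox6*, a SOX factor that holds precursors immature, had the smallest p, with log2 values of 5.45, 5.34, and 5.38 against 5.26, 5.12, and 5.12, which differed by -0.22 (SE 0.09, adjusted p = 0.84, limma), and groups that did not overlap. *Sox8* differed by 0.20 (0.10 without ΔLepRb-labeled array 3) and *Zfp488* by -0.18 (-0.09 without ΔLepRb-labeled array 1), and the list had a median of -0.03.

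Of 46 other myelin genes, 1 was higher and 1 was lower by the threshold, which 1.44% and 0.577% of all genes passed. The median of the list was 0.01. *S1pr5*, a sphingosine phosphate receptor of oligodendrocytes, was at 4.74, 4.26, and 4.61 against 5.13, 4.81, and 5.08, without overlap. With 0.47 on the log2 scale (SE 0.14, adjusted p = 0.79, limma), it was 1.38-fold higher, and it did not pass with the methods' test (unadjusted p = 0.055).
*Cryab*, a small heat shock protein of oligodendrocytes and astrocytes, was at 8.08, 7.73, and 7.95 against 6.57, 7.78, and 7.36. Its log2 difference of -0.69 (SE 0.25, adjusted p = 0.84, limma) rested on ΔLepRb-labeled array 1, and was -0.36 and no longer past the threshold without it. *Cryab* also no longer passed without fl/fl-labeled array 1 (-0.61) or 3 (-0.67), nor with the methods' test or an intensity trend. *Plxnb3*, a semaphorin receptor, was 23.5% lower (log2 fold change -0.39) and passed only without fl/fl-labeled array 2 (-0.49) or ΔLepRb-labeled array 1 (-0.44).

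None of 36 genes of signals that act on the lineage passed the threshold. *Fgfr2*, an FGF receptor of oligodendrocytes, differed by -0.25 (SE 0.10), *Adgrg6*, an adhesion receptor, by -0.24 (SE 0.11, -0.15 without fl/fl-labeled array 3), and *Hes5*, a Notch target that holds back differentiation, by -0.50 (unadjusted p = 0.057, limma). *Hes5* was at 4.24, 4.83, and 4.29 against 4.29, 4.16, and 3.40, passed the threshold in 6 of 14 alternative settings, among them without fl/fl-labeled array 1 (-0.61) or ΔLepRb-labeled array 1 (-0.67) or 2 (-0.61) and with an intensity trend or with dim genes left out, and was at -0.23 without ΔLepRb-labeled array 3.

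Some markers of other cells passed the threshold, which 2.01% of all genes did in either direction. Of 16 astrocyte genes 1 was higher (*Gjb6*, 0.35), of 14 microglia genes none passed, of 16 neuron genes 1 was lower (*Nefm*, -0.54), and of 10 ependymal and tanycyte genes 1 was lower (*Ccdc153*, -0.58). Of 15 genes of choroid plexus and meninges and of 7 pituitary genes none passed. Among 10 genes of thalamus, cortex, and striatum *Neurod6* (0.34) was higher and *Emx1* (-0.52) lower, and among 5 genes of Schwann cells, the myelinating cells of nerves outside the brain, *Ncmap* (0.38) was higher. *Neurod6*, *Emx1*, and *Ncmap* were all dimmer than the median gene on either side. Of 21 hypothalamic markers *Hdc* (0.44) was higher and *Avp* (-0.46) lower. Some of these calls were lost in alternative settings. *Gjb6* stayed past the threshold in 7 of 14, *Nefm* in 10 of 14, and *Neurod6* in 8 of 13, each lost with the methods' test (unadjusted p = 0.16, 0.098, and 0.11), and *Avp* in 12 of 14. Without ΔLepRb-labeled array 2 *Gjb6* was at 0.23, and without ΔLepRb-labeled array 3 *Neurod6* was at 0.22. The summed linear level was 4246 to 4787 against 4485 to 4730 for astrocytes, 603 to 651 against 542 to 609 for microglia, and 11749 to 12362 against 11676 to 11943 for neurons, in the fl/fl-labeled arrays against the ΔLepRb-labeled ones, and their part in the oligodendrocyte values was not tested.

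**Figure D4:**
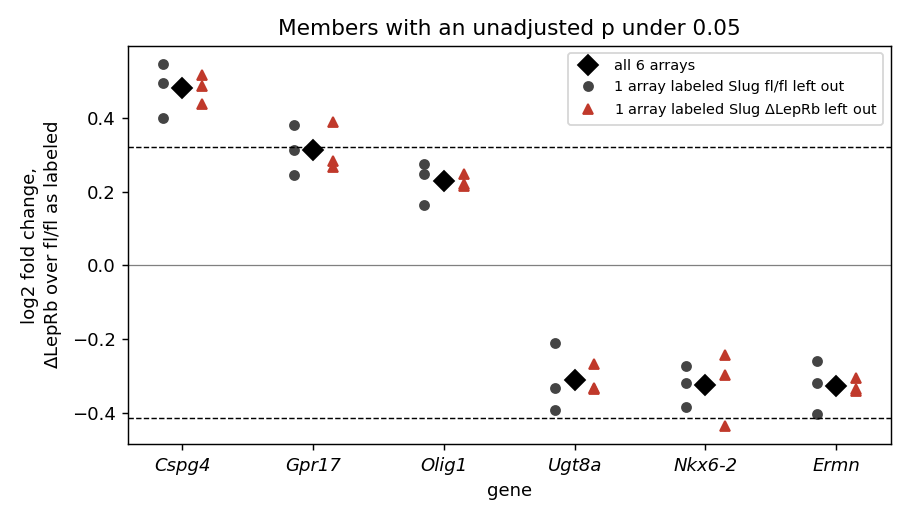
For the 6 members with an unadjusted p under 0.05, diamonds give the log2 fold change over all 6 arrays, and circles and triangles the value with 1 array of either group left out, with dashed lines at the study's size limits, a log2 fold change of 0.32 and a level 25% lower. *Cspg4* stays above the upper line (0.40 to 0.55), *Gpr17* crosses it (0.25 to 0.39), and *Nkx6-2* crosses the lower line once (-0.44).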

How the data were processed

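Total hypothalamic RNA was labeled with the Affymetrix WT Plus kit. The authors deposited 1 table of log2 values, with 24663 rows and a column for each of 6 arrays. The log base was inferred from the range (0.90 to 12.43). MAS5 is named, with no role, in the submitters' processing notes. Background correction, normalization, and filtering are steps not given in the sources used here. No value was set against a probe's background, and precision is limited by there being 6 arrays.

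Rows with 1 symbol in the platform annotation (21925, against 818 with several and 1920 unnamed) were used, with the brightest row per gene by its mean over 6 arrays (418 rows merged). Groups were compared over 21507 genes without covariates by limma 3.58.1 (R 4.3.3; functions lmFit and eBayes) after a check on simulated arrays. Entrez identifiers of all 31 members were found in RefSeq (GRCm38.p6), which was used for names, chromosomes, neighbors, and promoter windows. The summed level of a list is the sum of its values on the linear scale. The threshold is that of the study. The methods' test is the 2-tailed Student's test that the study names.

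The members and lists were chosen with earlier results of these data known, so no p was adjusted over the list alone. Values in every array were given for the 10 members with the smallest p and for 11 stage markers, and for some genes of further lists. Of each further lineage list, the genes past the threshold or otherwise up to 3 with the smallest p were named, and of each marker list those past the threshold. *Plxnb3* and the mural genes were named after their values were seen. Alternatives were the methods' test, quantile normalization or centring on the array median, a robust prior with an intensity trend, a filter on dim genes, averaged rows per gene, weights for arrays, a block for the replicate number, and each array left out.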

Additional observations from a re-analysis of the deposited data

How the results depend on the processing

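*Cspg4* was the only member past the threshold under the 8 settings that kept all arrays. As each array was left out, 1 to 2 members were higher and 0 to 1 lower, *Cspg4* always among them, joined by *Gpr17*, *Bcas1*, or *Gjb1* upward and *Nkx6-2* downward. The precursor median lay between 0.031 and 0.15, the myelinating median between -0.04 and 0.07, and their difference between -0.19 and -0.032, and the myelinating median changed sign as single arrays were left out. With dim genes left out it was -0.02 and the difference -0.10. Members that kept their sign but moved by over 1.5 times included *C1ql1* (0.03 to 0.24), *Gjb1* (0.13 to 0.41), *Car2* (-0.33 to -0.14), and *Fa2h* (-0.39 to -0.06). *Sox10* changed sign with quantile normalization (-0.0090) and median centring (-0.00075), and from -0.20 to 0.15 as each array was left out. Other members near 0 also changed sign then, with ranges of -0.079 to 0.17 for *Neu4*, -0.10 to 0.078 for *Bmp4*, -0.12 to 0.094 for *Vcan*, -0.14 to 0.0062 for *Mbp*, -0.10 to 0.071 for *Mag*, -0.023 to 0.15 for *Mobp*, -0.043 to 0.21 for *Cldn11*, -0.11 to 0.15 for *Opalin*, -0.10 to 0.0015 for *Enpp6*, -0.12 to 0.068 for *Aspa*, -0.085 to 0.25 for *Tspan2*, -0.039 to 0.033 for *Gpr37*, and -0.013 to 0.19 for *Cldn14*. The cause was not tested.

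Over all genes, 309 higher and 124 lower genes became 156 and 62 with the methods' test and 150 and 63 with dim genes left out, where 10931 genes were tested, and the lower count reached 189 as each array was left out. Same-numbered arrays did not deviate together over all genes (correlations -0.003, -0.01, and -0.06), and a link that touches only some genes was not tested. With the replicate number as a block, 1 member was higher (*Cspg4*, 0.48) and 0 lower, with medians of 0.07 and 0.01, and 348 genes were higher and 138 lower. Of the genes followed through the settings, only *Hes5* changed its call with the block, and passed the threshold (-0.50, unadjusted p = 0.016, limma).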
